A study of Homo sapiens with 12 samples.

Results

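The MHC class I antigen presentation genes described here were 9 rows of a count table of 16389 genes, matched by symbol to a list of members. That list was chosen with earlier results of these data known. It held the heavy chain genes HLA-B, HLA-C, HLA-E and HLA-F, the light chain gene B2M, the transporter genes TAP1 and TAP2, the tapasin gene TAPBP and the transactivator gene NLRC5. Each symbol had 1 row, and all 9 were tested in every comparison. They were measured by RNA-seq in HepG2, an established human liver cancer cell line of hepatocyte character, in 12 libraries of poly(A) selected RNA. The libraries formed 4 groups of 3. LG cells were kept for 48 h in medium with 5.5 mM glucose, HG cells for 48 h in medium raised to 20 mM glucose, and LGV and HGV cells received 1 mM valproic acid (VPA) for a further 12 h in the respective medium. The study's methods do not say whether LG and HG cells were also kept for the further 12 h. If they were not, VPA and time in culture cannot be told apart. VPA is an anticonvulsant that inhibits histone deacetylases. All groups shared the cell line, the basal medium with fetal bovine serum and antibiotics, and the labels name no genetic alteration in any of them. The labels do not say whether the 3 replicates of a group were separate cultures, so the p-values below measure the spread between these libraries, which may be technical.

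Class I molecules display short peptides from inside the cell to CD8+ T cells and natural killer cells. Proteasomes cut proteins into peptides, the TAP1-TAP2 transporter carries the peptides into the endoplasmic reticulum, and tapasin holds the transporter to an empty class I molecule, made of a polymorphic heavy chain and the invariant light chain B2M, until a peptide fits. Transcription of these genes rests on a shared promoter module with X and Y boxes, through which NLRC5 acts, and on elements that answer to interferon and NF-kB. Hepatocytes are known to carry little class I at rest.

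The promoters of the genes are shown because this shared module is what the class I genes have in common outside the coding sequence. RefSeq windows of GRCh38.p14 were found for 7 of the 9 members, and HLA-E and NLRC5 had no entry. The 200 bases before the start of transcription are printed 5′ to 3′ along the strand of the gene, for the heavy chains and B2M, for TAP1 and for TAPBP. Capitals mark CCAAT (the Y box core, ATTGG when read on the other strand), TGACG (the core of the X2 box and of cyclic AMP response elements), GAAANNGAA (the core of the interferon response element, which may overlap a further copy of itself) and GGGATTCCC (the core of enhancer A, an NF-kB element of class I genes), searched on both strands.
HLA-B, chr6:31357180-31357379, minus strand: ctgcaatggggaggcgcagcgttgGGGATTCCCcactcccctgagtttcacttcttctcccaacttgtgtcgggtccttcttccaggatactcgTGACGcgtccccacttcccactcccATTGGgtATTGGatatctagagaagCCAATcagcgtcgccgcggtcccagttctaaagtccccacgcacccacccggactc
HLA-C, chr6:31272093-31272292, minus strand: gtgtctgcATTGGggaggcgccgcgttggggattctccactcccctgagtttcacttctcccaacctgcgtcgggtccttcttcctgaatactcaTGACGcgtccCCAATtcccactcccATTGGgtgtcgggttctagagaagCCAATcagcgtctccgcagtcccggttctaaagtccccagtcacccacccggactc
HLA-F, chr6:29723234-29723433, plus strand: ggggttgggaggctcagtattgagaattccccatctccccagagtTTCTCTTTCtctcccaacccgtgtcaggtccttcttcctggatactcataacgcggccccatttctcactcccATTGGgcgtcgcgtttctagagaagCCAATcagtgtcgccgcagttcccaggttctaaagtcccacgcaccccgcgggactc
B2M, chr15:44711317-44711516, plus strand: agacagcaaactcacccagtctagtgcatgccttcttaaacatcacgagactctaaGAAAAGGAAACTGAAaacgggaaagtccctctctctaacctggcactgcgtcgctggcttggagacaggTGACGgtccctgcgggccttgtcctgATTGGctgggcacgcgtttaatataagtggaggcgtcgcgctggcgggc
TAP1, chr6:32853705-32853904, minus strand: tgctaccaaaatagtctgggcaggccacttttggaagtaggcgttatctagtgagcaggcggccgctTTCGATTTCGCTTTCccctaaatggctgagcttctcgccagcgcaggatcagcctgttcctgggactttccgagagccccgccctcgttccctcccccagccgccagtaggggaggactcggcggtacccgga
TAPBP, chr6:33314079-33314278, minus strand: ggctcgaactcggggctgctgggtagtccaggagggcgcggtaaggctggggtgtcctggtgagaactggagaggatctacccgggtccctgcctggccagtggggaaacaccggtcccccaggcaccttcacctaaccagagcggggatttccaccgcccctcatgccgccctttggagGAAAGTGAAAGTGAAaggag

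CCAAT was found 3 times before HLA-B, 4 times before HLA-C, 2 times before HLA-F and 1 time before B2M, against 34.6% of 35116 RefSeq promoter windows that held it at least 1 time. Those windows reach from 250 bases before to 50 bases after the start, and over that length TAP1 also held a CCAAT, 249 bases before its start and outside the letters printed. A separate RefSeq start of TAP1 had none of the 4 motifs. TGACG, present in 24.6% of the windows, stood 106 bases before the start of HLA-B, 105 bases before that of HLA-C and 75 bases before that of B2M. Of the sequences printed, HLA-B alone held GGGATTCCC, which 0.384% of the windows contain. GAAANNGAA occurred in 8.11% of the windows. It was found 1 time before HLA-F and as 2 overlapping copies before B2M, TAP1 and TAPBP. HLA-B and HLA-C had no exact copy, but both printed windows held its parts GAAA and GAA in swapped order on the other strand. The search counted exact letters only, so a window without a match may still hold a related element. The window of TAP2, not printed, held 1 TGACG and 1 GAAANNGAA. The TAP1 window ran toward PSMB9, an immunoproteasome gene that starts 488 bases away on the opposite strand. These matches describe the reference letters and not the alleles of HepG2.

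On GRCh37, the build of the deposited counts, the genes of chromosome 6 were placed at 29690552 to 29706305 (HLA-F, plus strand), 30457286 to 30461971 (HLA-E, plus), 31236526 to 31239907 (HLA-C, minus), 31321649 to 31334844 (HLA-B, minus), 32789610 to 32806516 (TAP2, minus), 32812986 to 32821593 (TAP1, minus) and 33267471 to 33282061 (TAPBP, minus). B2M lay on chromosome 15 at 45003556 to 45011049 and NLRC5 on chromosome 16 at 57023397 to 57117443, both on the plus strand. All 9 are annotated as protein coding. The authors counted reads over a different annotation of this build, from Ensembl, so the exons counted may differ from those described here. Only reads with a mapping quality of at least 10 were counted, a limit that can leave out reads from stretches shared with other genes. Heavy chain genes resemble each other and carry many alleles. Of the 50-base stretches of the annotated exons, 5.79% of those in HLA-C, 5.19% in HLA-E, 2.22% in HLA-B and 0.98% in HLA-F also occurred in another gene at a different place. The share was 6.22% in TAPBP, 1.31% in TAP1, 0.34% in TAP2 and 0 in B2M and NLRC5, so such stretches were not particular to the heavy chains. Of the annotated exon bases, 30.7% in HLA-B overlapped the pseudogene DHFRP2, 21.0% in TAPBP a long non-coding RNA and 19.5% in TAP2 another protein coding gene, none of which is in the count table. Exons of HLA-F shared 12.4% of their bases with the antisense gene HLA-F-AS1 and those of TAP1 shared 14.2% with PSMB8-AS1 on the other strand. The libraries were made with a kit that marks strand, but the strand setting of the counting is not given in the sources used here. HLA-F-AS1 reached 0.337 to 2.74 CPM and PSMB8-AS1 0.175 to 0.927 CPM.

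Total counts per library ran from 29798442 to 45572694, so that 3 reads, the floor used here, stood for 0.0713 to 0.112 CPM (the count of a gene scaled to the library total, after TMM factors). This floor covers counting error only. The smallest count of a member was 64 reads, for HLA-F in 1 LG library. All 9 hepatocyte markers examined were in the table and summed to 40050 to 61620 CPM, with ALB (albumin) at 18950 to 29440 CPM. Of the leukocyte markers, CD14 stood at 0.630 to 4.73 CPM and LYZ at 908 to 1545 CPM, and PTPRC, CD3E and CD68 were not analysed here. Replicates within every group differed by more than sampling noise.

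In every group B2M had the highest level per length of the 9 genes. With the length of the canonical transcript, a divisor chosen after the union of exons was seen to take in neighbouring pseudogenes, B2M stood at 299.7 ± 30.7 CPM per kb in LG, 267.1 ± 13 in HG, 418.9 ± 32.9 in LGV and 395.5 ± 59.6 in HGV (mean ± SD, n = 3). HLA-C ranked next, at 141.5 ± 14.0 CPM per kb in LG and 178.9 ± 18.2 in HGV. HLA-E and HLA-B followed. In LG and LGV HLA-E was the higher (83.2 ± 8.31 against 57.7 ± 4.14 CPM per kb in LG), in HG the HLA-B libraries lay above those of HLA-E (84.95 to 99.1 against 76.6 to 83.6), and in HGV the ranges overlapped (124.8 to 164.8 against 119.9 to 143.5). TAPBP and TAP1 came below the heavy chains, at 31.7 ± 1.85 and 18.8 ± 1.75 CPM per kb in LG, with TAPBP the higher in every group. HLA-F, NLRC5 and TAP2 held the lowest places, between 1.66 ± 0.0983 CPM per kb (HLA-F in LG) and 4.46 ± 0.162 (HLA-F in HGV), and HLA-F and NLRC5 overlapped in LG (1.59 to 1.77 and 1.47 to 2.09). With the union of exons as the length, HLA-C was above B2M in HG (93.0 to 103.9 against 77.3 to 85.0 CPM per kb) and HLA-B ranked below HLA-E in every group.

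**Figure D1:**
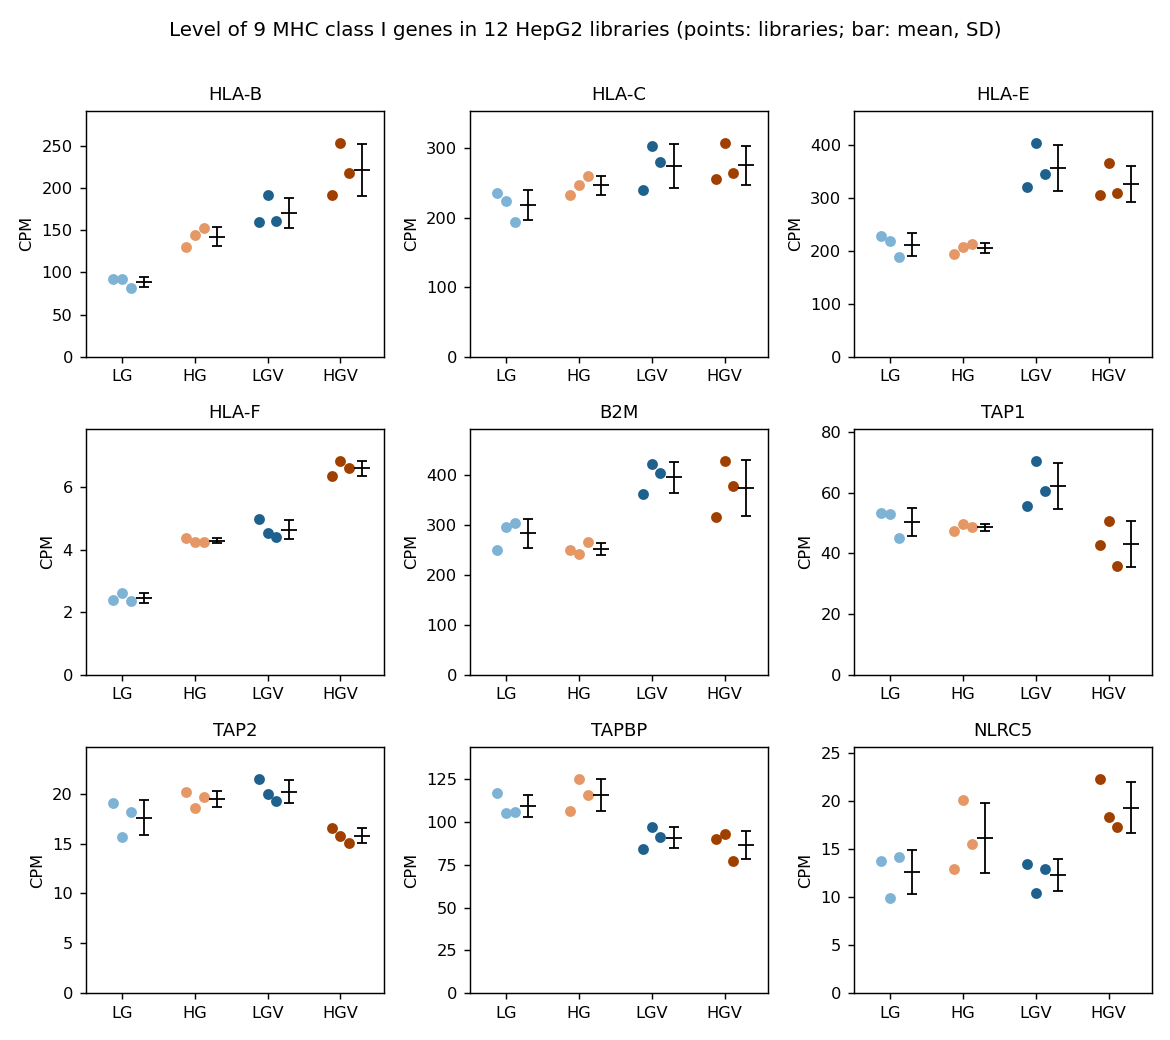
Level of each of the 9 genes in CPM (vertical axis, from 0) in the 12 libraries, by group (horizontal axis), with the mean and SD of 3 libraries as a bar. HLA-B and HLA-F sat higher in HG than in LG and higher again in HGV, HLA-E and B2M separated by VPA only, and TAP2 was lowest in HGV, between 15.1 and 16.6 CPM.

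The effect of high glucose was examined by comparing HG with LG. HLA-B and HLA-F rose and no other member was called. In all, 2 of 9 members were called higher and 0 lower, beside 12% of 15452 tested genes called higher and 12.7% called lower. The median log2 fold change was 0.17 over the 9 members and 0.01 over all tested genes. The background share would make about 1 of 9 genes higher, so the count higher was near it. No member with a negative fold change had an unadjusted p under 0.05, and the Wald test of DESeq2 gave the same counts.

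HLA-B, a classical heavy chain that presents peptides to T cells, stood at 92.5, 92.2 and 81.3 CPM in the LG libraries and at 130.5, 144.6 and 152.1 CPM in the HG libraries. Every HG library was above every LG library. The log2 fold change was 0.71 ± 0.12 (SE), a 1.63-fold rise (edgeR quasi-likelihood test, FDR = 0.000451). HLA-F, a low-level heavy chain known from activated lymphocytes and as a natural killer cell ligand, was at 2.39, 2.62 and 2.35 CPM in LG and at 4.38, 4.25 and 4.23 CPM in HG. Again the groups did not overlap, with a log2 fold change of 0.82 ± 0.21 (1.77-fold, FDR = 0.00784). In bulk RNA a change in the share of cells that express a gene and a change in RNA per cell cannot be told apart, which holds for every value here. The antisense HLA-F-AS1 had a log2 fold change of 0.70 ± 0.35 between HG and LG (FDR = 0.148), and its part in the HLA-F counts was not tested.

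HLA-C, the other classical heavy chain in the set, showed overlapping groups, with LG at 235.6, 224.9 and 194.1 CPM and HG at 233.1, 247.8 and 260.4 CPM. Its log2 fold change was 0.20 (95% interval -0.05 to 0.46, FDR = 0.228), and with library size alone in place of TMM factors it passed the threshold (0.30, FDR = 0.0465). HLA-E, a heavy chain of little variation that displays leader peptides to natural killer cells, was at 229.3, 218.2 and 188.4 CPM in LG and at 195.1, 208.5 and 213 CPM in HG, with a log2 fold change of -0.02 (-0.27 to 0.23). The sign of that value turned with upper quartile factors (0.07) and with library size (0.08). B2M was at 249.5, 295 and 303.3 CPM in LG and at 248.8, 241.4 and 265.3 CPM in HG, a log2 fold change of -0.14 (-0.40 to 0.11, FDR = 0.405).

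The assembly genes did not pass the test either. TAP1 and TAP2 form the peptide transporter. TAP1 was at 53.2, 52.9 and 45.0 CPM in LG and at 47.4, 49.5 and 48.7 CPM in HG, with a log2 fold change of -0.03 (-0.30 to 0.24) that became 0.06 with upper quartile factors and 0.07 with library size. TAP2 was at 19.1, 15.7 and 18.1 CPM in LG and at 20.2, 18.6 and 19.6 CPM in HG (0.17, -0.14 to 0.48). For TAPBP, whose product bridges the transporter and the class I molecule, the values were 116.8, 105.4 and 106 CPM in LG and 106.4, 125.2 and 115.8 CPM in HG (0.11, -0.15 to 0.36). NLRC5, the transactivator of the class I genes, varied most between replicates. It was at 13.7, 9.93 and 14.2 CPM in LG and at 12.9, 20.1 and 15.5 CPM in HG, and its log2 fold change of 0.39 (-0.01 to 0.78) did not pass (FDR = 0.143).

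The response to VPA in low glucose was examined by comparing LGV with LG. The 4 heavy chain genes and B2M rose, and the assembly genes and NLRC5 were not called. This made 5 of 9 members higher and 0 lower, beside 21.7% of 15944 tested genes higher and 19.9% lower, with a median log2 fold change of 0.34 over the members and -0.01 over all tested genes. The count of 0 lower was the same in the Wald test of DESeq2, and 1 member, TAPBP, had a negative fold change with an unadjusted p under 0.05. Hepatocyte markers summed to 40050 to 40970 CPM in LGV and to 52000 to 58700 CPM in LG, with 6 of 9 called lower and 0 higher. Their part in the rise of the class I genes was not tested.

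HLA-B reached 159.3, 191.3 and 160.8 CPM in LGV, all above LG, a log2 fold change of 0.96 ± 0.12 (1.94-fold, FDR = 2.04e-05). HLA-F reached 4.978, 4.514 and 4.403 CPM, also above every LG library (0.93 ± 0.20, 1.90-fold, FDR = 0.00208), with HLA-F-AS1 higher as well (1.73 ± 0.34, FDR = 0.000816). HLA-E was at 320.7, 404.2 and 345.2 CPM and did not overlap with LG (0.76 ± 0.13, 1.70-fold, FDR = 0.000267). These 3 changes were called under every alternative at an FDR of 0.05 and without any 1 library. B2M was at 360.8, 421.4 and 402.9 CPM, above the 249.5 to 303.3 CPM of LG (0.49 ± 0.13, 1.41-fold, FDR = 0.00594).

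HLA-C was nearest to the threshold among the genes called. Its LGV libraries were at 240, 303.6 and 279.9 CPM, the lowest just above the highest LG library at 235.6 CPM. The log2 fold change was 0.34 ± 0.13 (1.27-fold, FDR = 0.0429). The call was lost when LG replicate 1 (FDR = 0.0617), LG replicate 2 (0.0554), LG replicate 3 (0.108), LGV replicate 2 (0.176) or LGV replicate 3 (0.111) was left out, and with DESeq2 size factors (0.052).

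TAP1 was at 55.7, 70.4 and 60.7 CPM in LGV, above every LG library, with a log2 fold change of 0.32 ± 0.13 just outside the threshold (FDR = 0.0542). It passed with upper quartile factors (0.40, FDR = 0.0144), with library size (0.47, FDR = 0.00336) and with the filter of 1 CPM (0.33, FDR = 0.0368). It also passed without LG replicate 2 (FDR = 0.0466) and without LGV replicate 1 (FDR = 0.028). TAP2 was at 21.5, 20.0 and 19.2 CPM, above the LG range of 15.7 to 19.1 CPM, with a log2 fold change of 0.21 (-0.08 to 0.51, FDR = 0.244). TAPBP had the opposite sign, at 84.5, 97.1 and 91.1 CPM against 105.4 to 116.8 CPM in LG, a log2 fold change of -0.26 (-0.50 to -0.01, FDR = 0.0839). NLRC5 was at 13.5, 10.4 and 12.9 CPM and overlapped with LG (-0.03, -0.41 to 0.35), and its sign turned with upper quartile factors (0.06) and library size (0.13).

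The response to VPA in high glucose was examined by comparing HGV with HG. HLA-B, HLA-E, HLA-F and B2M rose, and TAP2 and TAPBP fell. With 4 of 9 members higher and 2 lower, the background was 25.8% of 16188 tested genes called higher and 20.2% called lower, so that the count lower was near it. The members had a median log2 fold change of 0.25 and all tested genes one of 0.03. Here the hepatocyte markers, a sum in which ALB weighs most, stood at 46990 to 61620 CPM in HGV and 52990 to 60870 CPM in HG, and 1 of 9 was called higher and 2 lower. Their part in these changes was not tested.

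HLA-B was at 191.7, 253.1 and 217.7 CPM in HGV, with every library above those of HG, LG and LGV, the lowest only just above the highest LGV library at 191.3 CPM. Against HG the log2 fold change was 0.63 ± 0.12 (1.55-fold, FDR = 0.000839). HLA-E was at 305.5, 365.7 and 309.6 CPM, above the HG range of 195.1 to 213 CPM (0.67 ± 0.11, 1.59-fold, FDR = 0.000238). For HLA-F, at 6.35, 6.82 and 6.62 CPM, the HGV libraries were the highest of the 12 (0.62 ± 0.14, 1.54-fold, FDR = 0.00367), and HLA-F-AS1 was higher too (1.57 ± 0.31, FDR = 0.00115). B2M was at 314.8, 427 and 377.1 CPM, above the 241.4 to 265.3 CPM of HG (0.57 ± 0.12, 1.48-fold, FDR = 0.00199). HLA-C, at 255.3, 307.7 and 264.4 CPM, overlapped with HG (0.16, -0.07 to 0.39, FDR = 0.248), and it was called with library size alone (0.28, FDR = 0.0339).

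TAPBP fell to 90.0, 93.1 and 77.4 CPM, below every HG library, by 0.42 ± 0.11 on the log2 scale (FDR = 0.00745), and the call held without any 1 library. TAP2 fell to 16.6, 15.7 and 15.1 CPM, also below every HG library, by 0.30 ± 0.11 (FDR = 0.0446). Its call was lost whichever library was left out, with FDR = 0.0700 without HG replicate 1, 0.0653 without HG replicate 2, 0.142 without HG replicate 3, 0.0684 without HGV replicate 1, 0.0679 without HGV replicate 2 and 0.127 without HGV replicate 3. It was also lost with upper quartile factors (FDR = 0.106), with library size (FDR = 0.207) and in a fit of all 12 libraries (FDR = 0.057). TAP1 was at 42.7, 50.8 and 35.9 CPM and overlapped with HG (-0.17, -0.45 to 0.11, FDR = 0.298), and was called lower only without HGV replicate 2, its highest library (-0.30, FDR = 0.0412). NLRC5, at 22.3, 18.4 and 17.2 CPM, overlapped with HG (0.25, -0.11 to 0.61, FDR = 0.234), and was called higher without HG replicate 2, the highest HG library (0.44, FDR = 0.049).

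**Figure D2:**
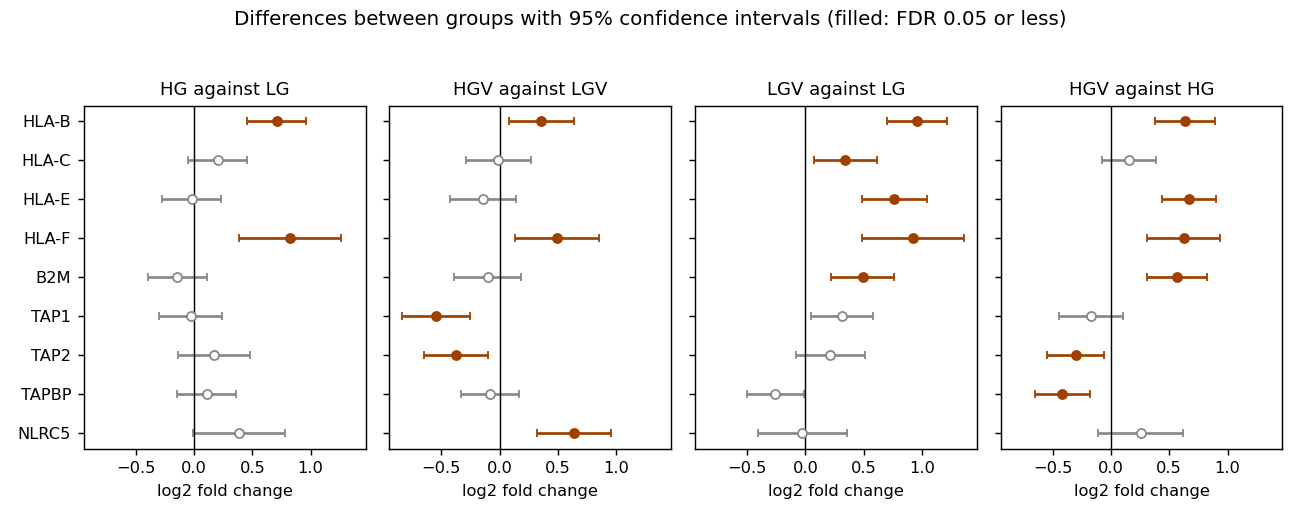
Log2 fold change (horizontal axis) of each gene with its 95% confidence interval in 4 comparisons, filled where the FDR was 0.05 or less. The intervals of HLA-B and HLA-F lay above 0 in all 4 panels, those of HLA-E and B2M only in the panels for VPA, and TAP1 and TAP2 were below 0 in HGV against LGV (-0.55 and -0.38).

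Glucose was also compared in the presence of VPA, as HGV against LGV. HLA-B, HLA-F and NLRC5 were higher in HGV, and TAP1 and TAP2 were lower. The counts of 3 of 9 higher and 2 of 9 lower stood beside 21.2% of 16208 tested genes higher and 19.5% lower. Both counts were near the background. The median was -0.08 over the members and 0.01 over all tested genes. Of the hepatocyte markers, 4 of 9 were called higher and 0 lower, and their part in these differences was not tested.

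NLRC5 showed its only call here. Its HGV libraries, from 17.2 to 22.3 CPM, lay above the LGV libraries, from 10.4 to 13.5 CPM, with a log2 fold change of 0.64 ± 0.15 (1.55-fold, FDR = 0.00276), and the FDR stayed at or under 0.0263 in all 15 alternatives. TAP1 moved the other way, from 55.7 to 70.4 CPM in LGV to 35.9 to 50.8 CPM in HGV. It fell by 0.55 ± 0.14 on the log2 scale (FDR = 0.00443), with an FDR of at most 0.0305 in the same alternatives. TAP2 fell by 0.38 ± 0.13 (FDR = 0.0271), from 19.2 to 21.5 CPM in LGV to 15.1 to 16.6 CPM in HGV. The TAP2 call was lost without LGV replicate 1 (FDR = 0.0529), LGV replicate 2 (0.0681), LGV replicate 3 (0.064) or HGV replicate 3 (0.0907), and with upper quartile factors (0.0955) or library size (0.107).

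HLA-B was higher by 0.35 ± 0.13 on the log2 scale (1.28-fold, FDR = 0.04) and HLA-F by 0.49 ± 0.17 (1.41-fold, FDR = 0.0296), without overlap between the groups. Both calls rested on few libraries. HLA-B was no longer called without LGV replicate 1 (FDR = 0.0957), LGV replicate 3 (0.171), HGV replicate 2 (0.121) or HGV replicate 3 (0.0715), nor with DESeq2 size factors (0.0513). HLA-F was no longer called without LGV replicate 2 (FDR = 0.0897), LGV replicate 3 (0.126), HGV replicate 1 (0.0585) or HGV replicate 3 (0.0715). HLA-C (-0.01, -0.29 to 0.27), HLA-E (-0.14, -0.42 to 0.14), B2M (-0.10, -0.39 to 0.19) and TAPBP (-0.08, -0.34 to 0.17) were not called. The signs of HLA-C and TAPBP turned with upper quartile factors (0.08 and 0.01) and with library size (0.08 and 0.004).

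Whether the response to VPA differed between low and high glucose was tested as an interaction over the 12 libraries. No member was called in edgeR's quasi-likelihood test, beside 0.0244% of 16389 genes called with a positive and 0.0183% with a negative interaction. TAP2 and TAP1 had the smallest unadjusted p among the members. For TAP2 the interaction was -0.50 on the log2 scale (-0.88 to -0.13, unadjusted p = 0.0107, FDR = 0.268 in edgeR), and for TAP1 it was -0.47 (-0.86 to -0.09, unadjusted p = 0.0192, FDR = 0.322). These were the 2 members of 9 under an unadjusted p of 0.05, and the Wald test of DESeq2 called no member either. The interactions of the heavy chains and B2M ran from -0.31 for HLA-B (-0.67 to 0.05) to 0.08 for B2M (-0.28 to 0.45). NLRC5 had 0.29 (-0.23 to 0.82). LGV against LG and HGV against HG thus gave the same call for HLA-B, HLA-E, HLA-F and B2M, and where the calls differed (HLA-C, TAP2 and TAPBP) the difference itself did not pass the test.

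The unequal changes altered the make-up of the heavy chain RNA. Among HLA-B, HLA-C, HLA-E and HLA-F, summed per kb of canonical transcript, HLA-B held 20.4% ± 0.53 in LG, 27.5% ± 0.55 in HG, 25.7% ± 1.0 in LGV and 31.5% ± 1.2 in HGV (SD, n = 3). HLA-C went from 49.8% ± 0.33 in LG to 47.6% ± 0.28 in HG, 41.2% ± 1.4 in LGV and 39.3% ± 0.55 in HGV. The share of HLA-E was lower in HG (24.0% ± 0.35) than in LG (29.3% ± 0.25), and was 32.4% ± 0.47 in LGV and 28.2% ± 0.65 in HGV. HLA-F held at most 1.03% in any library. Within a library these shares do not depend on the scaling between libraries, but they do depend on the length used. Per kb of the union of exons, HLA-B held 10.7% ± 0.32 in LG, 15.3% ± 0.36 in HG, 13.7% ± 0.60 in LGV and 17.6% ± 0.82 in HGV, while HLA-E held 40.4% ± 0.19 in LG and, at 45.3% ± 0.71, more than the 40.6% ± 1.2 of HLA-C in LGV. HLA-C was then no lower in HG (49.1% ± 0.25) than in LG (48.5% ± 0.15). With either length the shares of HLA-B did not overlap between LG and any other group, nor between HGV and any other. B2M per summed heavy chain level, with canonical lengths, was 1.07 ± 0.20 in LG, 0.795 ± 0.041 in HG, 0.972 ± 0.042 in LGV and 0.866 ± 0.055 in HGV. The LG libraries alone spanned 0.869 to 1.26, a range that took in LGV.

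**Figure D3:**
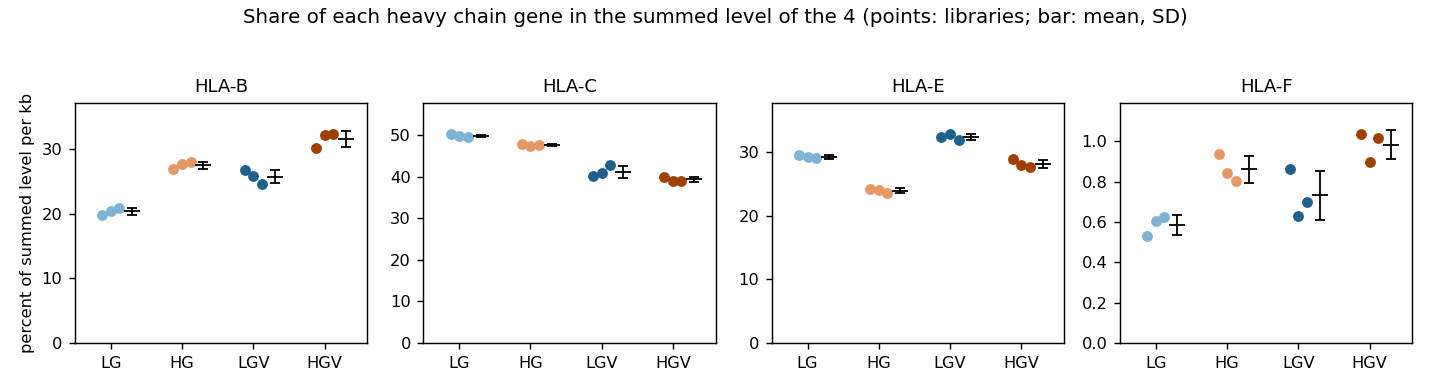
Share of each heavy chain gene (percent of the summed level per kb of the 4 genes, from 0, with its own scale in each panel) in the 12 libraries, with mean and SD of 3. HLA-B stood at 20.4% in LG and 31.5% in HGV, HLA-C at 49.8% and 39.3%, and HLA-F made up at most 1.03%.

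Across the 12 libraries the genes fell along different courses. As a description, since the points share group means and depth, log2 CPM of HLA-B and HLA-F had a Pearson correlation of 0.96 and HLA-E and B2M one of 0.90, while TAPBP and B2M had -0.78 and NLRC5 and TAP1 -0.62. TAP1 and TAP2, whose products work as a pair, had 0.56. The gene with the course most like that of each member, by Pearson correlation over the 12 libraries among 11954 genes whose mean was 1 log2 CPM or more, was DYDC2 for HLA-B (0.985), MYL6B for HLA-C (0.956), ITM2C for HLA-E (0.994) and RNF39 for HLA-F (0.983). It was MYL12A for B2M (0.958), ARMCX6 for TAP1 (0.955), C1orf106 for TAP2 (0.831), TYRO3 for TAPBP (0.968) and ADAMTSL4 for NLRC5 (0.936). RNF39 also lies on chromosome 6 (30038043 to 30043626 on GRCh37). No member was the nearest gene of another.

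Genes that supply and trim peptides were counted in full from related lists. Of 6 peptide loading and trimming genes, 3 were lower in HG than in LG, 5 lower in HGV than in LGV, 5 lower in HGV than in HG and 1 lower in LGV than in LG, with 0 higher throughout. The shares of all tested genes lower were 12.7%, 19.5%, 20.2% and 19.9% in that order. CALR, a chaperone of the loading complex that also folds many other glycoproteins, was at 3895, 3927 and 2512 CPM in LG and at 683.5, 707.8 and 745.6 CPM in HG. It fell by 2.25 ± 0.16 on the log2 scale (FDR = 1.66e-08). CANX, which binds newly made heavy chains, fell by 1.10 ± 0.13 (FDR = 1.15e-05), and PDIA3, the oxidoreductase joined to tapasin, fell by 1.24 ± 0.14 (FDR = 8.56e-06). ERAP1 and ERAP2 trim peptides in the endoplasmic reticulum, and in HGV against HG they fell by 0.52 ± 0.13 (FDR = 0.00456) and 0.98 ± 0.15 (FDR = 0.000182). TAPBPL, a tapasin relative, was lower with VPA at either glucose level, by 0.83 ± 0.20 in LGV against LG (FDR = 0.00433) and 0.91 ± 0.16 in HGV against HG (FDR = 0.000474). Cytosolic peptidases, which can destroy peptides before transport, had 3 of 5 lower in HG than in LG and in HGV than in LGV (TPP2, LAP3 and THOP1), and 0 of 5 called with VPA.

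Among 5 immunoproteasome genes only PSMB9 was higher, and it was higher in all 4 comparisons. Of all tested genes, 12% were higher in HG against LG and 21.7% in LGV against LG. The share was 25.8% in HGV against HG and 21.2% in HGV against LGV, so that a count of 1 of 5 was near the background. With VPA, 1 of 5 was lower in LGV against LG and 2 of 5 in HGV against HG, beside 19.9% and 20.2% of all tested genes. PSMB9 encodes the inducible subunit that takes the place of PSMB6 and shares its promoter region with TAP1. It was at 2.06, 0.799 and 2.40 CPM in LG, 3.80, 4.76 and 4.54 CPM in HG, 8.70, 6.30 and 6.22 CPM in LGV and 12.1, 16.1 and 11.7 CPM in HGV, and no 2 groups overlapped. The log2 fold change was 1.35 ± 0.30 in HG against LG (FDR = 0.00318), 2.03 ± 0.32 in LGV against LG (FDR = 0.000138), 1.61 ± 0.17 in HGV against HG (FDR = 8.73e-06) and 0.89 ± 0.18 in HGV against LGV (FDR = 0.000739). TAP1, its divergent neighbour, was called in the last of these alone and in the other direction. PSMB10, the inducible partner of PSMB7, fell with VPA at either glucose level. Its log2 fold change was -1.07 ± 0.28 in LGV against LG (FDR = 0.00609) and -1.395 ± 0.214 in HGV against HG (FDR = 0.000183). PSMB8, the inducible partner of PSMB5, fell by 0.74 ± 0.16 in HGV against HG (FDR = 0.00195). PSMB9 shares exon bases with PSMB8 and PSMB8-AS1 (4.2% and 5.2%), and 39.4% of those of PSMB10 overlap another annotated gene. PSMB5 and PSMB6 were lower with VPA at either glucose level, PSMB6 by 0.91 ± 0.12 in LGV against LG (FDR = 3.08e-05) and by 0.55 ± 0.12 in HGV against HG (FDR = 0.0033). Per kb, PSMB9 thus went from 1.39% ± 0.75 of PSMB6 in LG to 4.22% ± 0.27 in HG, 10.5% ± 3.2 in LGV and 18.7% ± 0.79 in HGV, while PSMB10 was at 1.67% ± 0.55 of PSMB7 in LG and 0.644% ± 0.076 in HGV. PSMB8 followed neither course, at 6.84% ± 0.81 of PSMB5 in LG, 8.81% ± 0.39 in HG, 9.35% ± 1.3 in LGV and 7.86% ± 0.74 in HGV. These percentages use canonical lengths, and per kb of the exon union PSMB9 went from 0.743% ± 0.40 to 9.99% ± 0.42 of PSMB6 between LG and HGV.

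**Figure D4:**
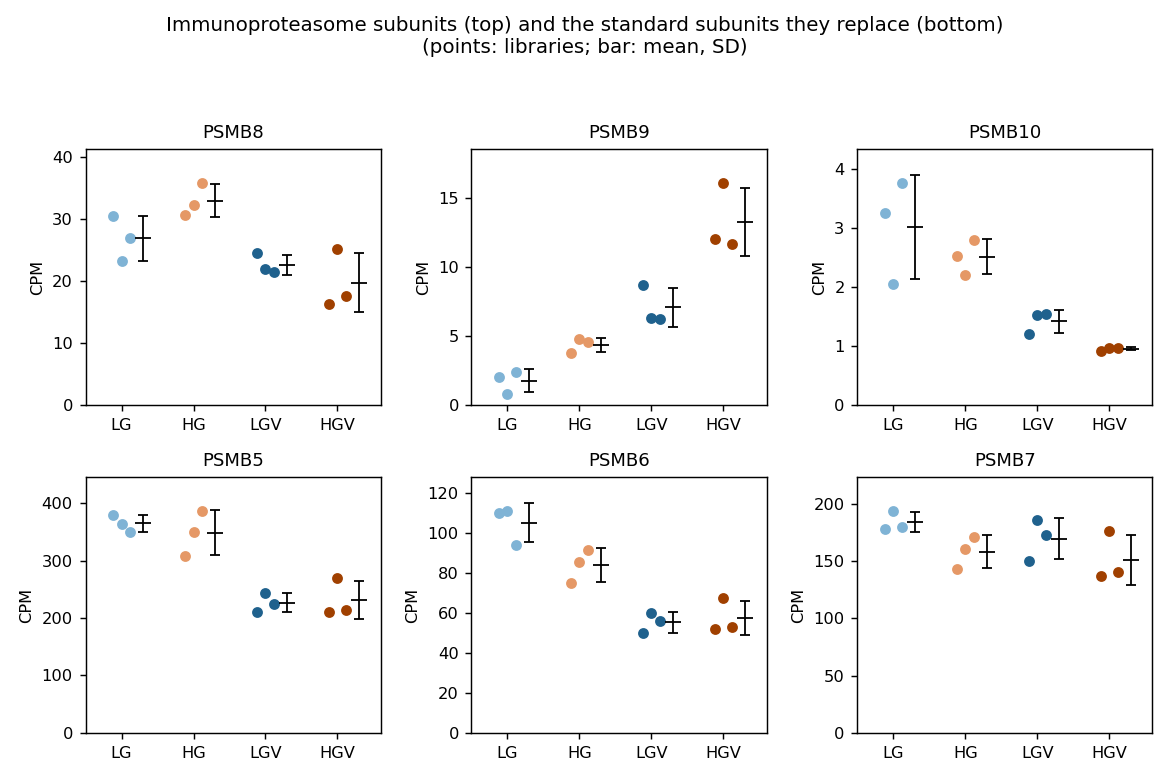
Level in CPM (vertical axes, from 0) of the immunoproteasome subunits PSMB8, PSMB9 and PSMB10 and of the standard subunits PSMB5, PSMB6 and PSMB7 that they replace, in the 12 libraries with the mean and SD of 3. PSMB9 climbed from at most 2.40 CPM in LG to at least 11.7 CPM in HGV, and PSMB10 was lowest in HGV.

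Of 8 factors of the X and Y box complexes that act on class I promoters, 2 fell and 0 rose in LGV against LG, and 3 fell and 1 rose in HGV against HG. Beside 19.9% and 20.2% of all tested genes lower, the counts of genes that fell were near the background. NFYC, a subunit of the factor that binds CCAAT, was at 63.8 to 67.8 CPM in LG and 28.2 to 31.4 CPM in LGV, a fall of 1.16 ± 0.11 (FDR = 1.8e-06), and fell by 0.99 ± 0.10 in HGV against HG (FDR = 6.28e-06). NFYA, another subunit, rose by 0.51 ± 0.11 in HGV against HG (FDR = 0.00246). ATF1, which binds cyclic AMP response elements, fell by 0.74 ± 0.15 and 0.96 ± 0.14 in the same comparisons (FDR = 0.00118 and 0.000161). In HGV against LGV, the comparison in which NLRC5 was higher, 2 of the 8 were higher and 2 lower. Beside 21.2% and 19.5% of all tested genes, both counts were near the background. RFX5 and RFXANK, subunits of the X box factor, were higher by 0.51 ± 0.13 (FDR = 0.00438) and 0.79 ± 0.17 (FDR = 0.00154). ATF1 was among those lower (log2 fold change -0.66 ± 0.16, FDR = 0.00321).

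Of 15 genes of interferon and NF-kB signalling, 1 was higher and 3 lower in LGV against LG, and 2 were higher and 2 lower in HGV against HG. These counts were at or below the shares of all tested genes (21.7% higher and 19.9% lower, and 25.8% and 20.2%). NFKB1, an NF-kB subunit, fell with VPA by 0.98 ± 0.13 in low glucose (FDR = 2.64e-05) and by 1.46 ± 0.11 in high glucose (FDR = 4.23e-07). IFNGR2, a chain of the interferon gamma receptor, fell by 0.82 ± 0.12 (FDR = 6.15e-05) and 1.02 ± 0.13 (FDR = 3.58e-05). IRF1, a factor that binds interferon response elements, was not called in either (0.18 ± 0.19 and 0.07 ± 0.15). Interferon-induced genes moved in both directions, with 9 of 17 higher and 4 lower in LGV against LG, and 9 higher and 6 lower in HGV against HG, beside the same shares of all genes. IFI6 rose by 1.64 ± 0.14 and 2.50 ± 0.15 with VPA on the log2 scale (FDR = 6.73e-07 and 1.03e-07). In HG against LG, 7 of 16 were higher and 4 lower, beside 12% and 12.7% of all tested genes. UBE2L6, an enzyme that attaches ISG15 to proteins, was higher by 1.04 ± 0.18 (FDR = 0.000418), while OAS1, a sensor of viral RNA, fell by 1.36 ± 0.19 (FDR = 7.39e-05).

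Class I-like genes outside the classical pathway were mostly higher with VPA. Of 8 class I-like genes in the table, 6 were higher and 1 lower in LGV against LG, and 7 were higher and 0 lower in HGV against HG. Of all tested genes, 21.7% and 25.8% were higher in these comparisons. MICB, a stress-induced ligand of the natural killer cell receptor NKG2D, was at 8.09 to 9.21 CPM in LG and 44.5 to 48.5 CPM in LGV (log2 fold change 2.46 ± 0.13, FDR = 1.02e-08), and rose by 2.27 ± 0.12 in HGV against HG (FDR = 4.54e-08). PROCR, the endothelial protein C receptor, which has a class I fold, rose by 2.298 ± 0.209 and 1.798 ± 0.179 (FDR = 9.78e-07 and 5.59e-06). AZGP1, a secreted class I-like protein, was lower in HG than in LG by 1.06 ± 0.12 (FDR = 9.93e-06). Of 10 genes in the MHC class II list, only 3 were in the table, and no HLA-DR, HLA-DP or HLA-DQ gene was among them. Of those 3, HLA-DMA and CD74, the invariant chain, were higher with VPA at either glucose level. HLA-DMA went from 0.524 to 0.673 CPM in LG to 2.76 to 3.32 CPM in HGV, and was called higher in all 4 comparisons, as were HLA-B and HLA-F among the class I members. CIITA, the class II counterpart of NLRC5, was not called (0.25 ± 0.36 in LGV against LG and 0.53 ± 0.27 in HGV against HG). No gene of these lists was called in the interaction.

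**Figure D5:**
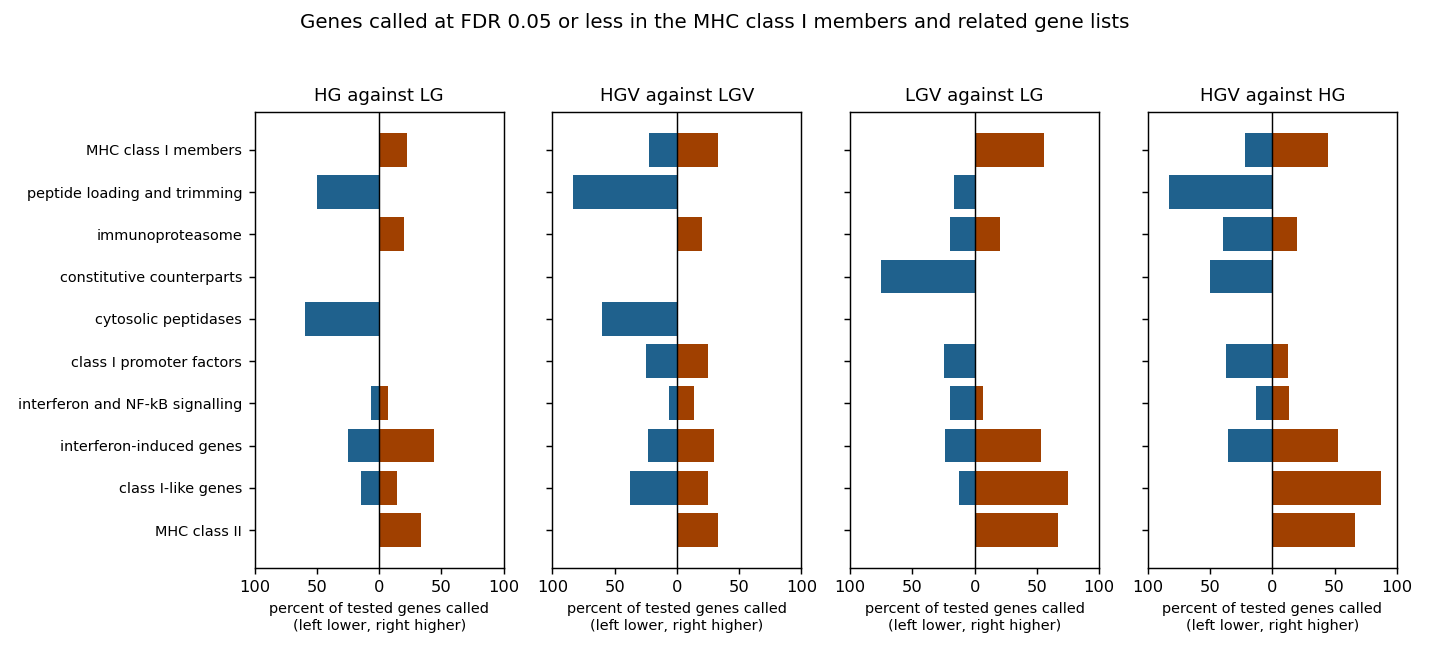
Percent of tested genes called at an FDR of 0.05 or less (horizontal axis, higher to the right and lower to the left) in the MHC class I members and 9 related lists, in 4 comparisons. Peptide loading and trimming genes were called lower only, 5 of 6 in HGV against HG, whereas 7 of 8 class I-like genes were higher in that comparison.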

How the data were processed

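Per the labels and the study's methods, the authors aligned trimmed 50 nt single-end reads to GRCh37 with STAR and deposited raw read counts per Ensembl gene from featureCounts, for 16389 genes with an average of at least 10 reads. The counts were not normalized by the authors, the strand setting is not given in the sources used here, and the labels name no batch. Between 29798442 and 45572694 reads per library were counted.

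Groups came from the labels. Genes averaging 10 reads or more over the libraries compared were tested with edgeR 4.0.16 (R 4.3.3), with TMM factors, the quasi-likelihood F test and Benjamini-Hochberg adjustment over all genes tested. An FDR up to 0.05 was a call. Pairwise fits used the 6 libraries compared and the interaction used 12. Alternatives were DESeq2 1.42.0 size factors and Wald test, upper quartile and library size scaling, other filters, a replicate block, 1 fit of all libraries, an FDR of 0.01 and leaving out each library. The canonical transcript length was added after the data were seen. On simulated data the test recovered 182 of 200 genes with a 2-fold change in HGV against HG, with 8 of 190 calls false, and 121 of 200 for the interaction, with 8 of 129 calls false. The simulation gave all genes and replicates the same spread and used no smaller change. Its rates therefore do not describe changes under 2-fold or the uneven spread of these libraries. Positions, exon overlaps and lengths came from GENCODE annotation on GRCh37 (97.47% of genes placed), which is not the Ensembl annotation used for the counts. Promoters came from RefSeq on GRCh38.p14. Python 3.11.15 with matplotlib 3.10.9 drew the plots. All 9 members are named, and from each list up to 4 genes with the smallest p in any comparison. ERAP1, TAPBPL, RFX5 and IRF1 were named in addition after their values were seen. The members and lists were chosen with earlier results of these data known.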

Additional observations from a re-analysis of the deposited data

Results flagged for a closer look

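TAP2 was singled out because its libraries with and without VPA separated in opposite directions at the 2 glucose levels. All 3 LGV libraries (19.2 to 21.5 CPM) lay above all 3 LG libraries (15.7 to 19.1 CPM), while all 3 HGV libraries (15.1 to 16.6 CPM) lay below all 3 HG libraries (18.6 to 20.2 CPM). The difference between the responses, taken as the interaction of glucose and VPA, was -0.505 ± 0.179 on the log2 scale and did not pass edgeR's quasi-likelihood test after adjustment (FDR = 0.268, 0.116 to 0.462 over 20 alternatives). TAP2 was picked by the same values that this interaction uses. In the same test LGV against LG was not called (0.21, -0.08 to 0.51, FDR = 0.244). The call in HGV against HG (FDR = 0.0446) was lost whichever library was left out.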

How the results depend on the processing

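Alternative settings kept the call and the sign of the members in 367 of 396 cases, and leaving out 1 library kept them in 281 of 324. The HG against LG calls of HLA-B and HLA-F, the VPA calls of HLA-B, HLA-E, HLA-F and B2M, TAPBP in HGV against HG, and NLRC5 and TAP1 in HGV against LGV held throughout. Signs turned only for values that were not called. With upper quartile factors the log2 fold change became 0.073 for HLA-E and 0.063 for TAP1 in HG against LG, 0.057 for NLRC5 in LGV against LG, and 0.084 for HLA-C and 0.01 for TAPBP in HGV against LGV. With library size alone these were 0.079, 0.071, 0.134, 0.079 and 0.004. In 1 fit of all 12 libraries HLA-C became 0.008 in HGV against LGV. Library size moved the median of all genes by up to 0.162 (LGV against LG), and the share of calls that were higher from 48.6% to 62.6% in HG against LG (64.3% with upper quartile factors), from 56.1% to 68.1% in HGV against HG, from 52.1% to 69.7% in LGV against LG, and in HGV against LGV from 52.2% to 63.5% with upper quartile factors. The causes were not tested.

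The count of members lower in HGV against HG was 1 with upper quartile factors, library size, 1 fit of all libraries or an FDR of 0.01, as TAP2 was lost. In HGV against LGV it was 1 with upper quartile factors, library size or an FDR of 0.01, again as TAP2 was lost, and at that FDR 1 member was higher. At an FDR of 0.01, 1852 genes were called in HG against LG, 4263 in HGV against LGV and 1 in the interaction. The interaction called 1 gene with library size and 153 with the Wald test of DESeq2. Deviations of same-numbered replicates from their group means had correlations from -0.201 to 0.295. Their mean was above that of different-numbered replicates in HGV against HG (0.086 against -0.046) and LGV against LG (0.027 against -0.014). The same held in HGV against LGV (0.083 against -0.042), but not in HG against LG (-0.078 against 0.04). Whether the numbers pair the samples was thus not settled. With replicate number as a block, 3351 genes were called in HG against LG, 8229 in HGV against HG, 6971 in LGV against LG, 7308 in HGV against LGV and 13 in the interaction, and 1 call of a member changed, TAP1 in LGV against LG (FDR = 0.0455).

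Without 1 library in turn, genes called ran from 1933 to 5338 in HG against LG and from 1 to 217 in the interaction (217 without LG replicate 2). Members lower ran from 1 to 2 in HGV against HG and from 1 to 2 in HGV against LGV, where members higher ran from 1 to 2. Values whose sign turned ran from -0.096 to 0.057 (HLA-E, HG against LG), -0.103 to 0.032 (TAP1, HG against LG), -0.179 to 0.087 (NLRC5, LGV against LG), -0.098 to 0.067 (HLA-C, HGV against LGV), -0.207 to 0.01 (B2M, HGV against LGV) and -0.064 to 0.193 (B2M, interaction). With 3 libraries a group and a count of 64 reads for HLA-F in its lowest library, small changes may not have been told from replicate spread. Calls did not follow size alone. NLRC5 in HG against LG was not called at a log2 fold change of 0.39, whereas TAP2 in HGV against HG was called at -0.30. Reads shared between alleles, or between sense and antisense genes, were not separated.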
